A study of Rattus norvegicus with 6 samples.

Results

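The receptors examined here bind the hormones and transmitters that make arteries constrict. The set was 9 genes chosen by symbol: the endothelin receptors Ednra and Ednrb, the angiotensin receptors Agtr1a and Agtr2, the α1-adrenergic receptors Adra1b and Adra1d, the serotonin receptor Htr2a, the thromboxane receptor Tbxa2r and the vasopressin receptor Avpr1a. Of these, 7 had a row among the 14475 genes of the count table, while Agtr2 and Adra1b had no row and were not analysed here. RNA was sequenced from vascular smooth muscle (VSM) cells grown in culture after isolation from soleus feed arteries (SFA), the vessels that supply the soleus muscle of the leg, of male Fischer 344 rats. Young rats were 4 months old (n = 3 libraries) and old rats were 24 months old (n = 3 libraries), and neither group was treated. Each library is described as the culture of a separate rat. The cells were cultured in medium with serum and away from the vessel wall, so the values describe cultured VSM cells and not the artery itself.

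Each of these genes encodes a receptor that spans the membrane and signals through G proteins. In VSM cells most of them couple to Gq, which activates phospholipase C, and the inositol trisphosphate formed then releases calcium from internal stores and drives contraction. Many also act through G12/13 and RhoA, whose kinases ROCK1 and ROCK2 keep myosin light chains phosphorylated. Endothelin, angiotensin II, norepinephrine, serotonin, thromboxane A2 and vasopressin are the classical agonists of these receptors and set the tone of resistance arteries alongside pressure. Ednrb is also known for its role in endothelial cells, where it promotes release of nitric oxide.

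Total counts ranged from 44235674 to 59700887 per library, and values are given as CPM, counts scaled to the library total with TMM factors. Counts of the 7 receptors ranged from 59 to 12205 in a library. The counting error of the lowest was 13.0% if each count is a separate fragment. Even numbers were 68.7% to 71.1% of all counts between 1 and 19, and if both mates of a pair were counted the error of the lowest count would be 18.4%. Every library total was above the depth in reads per sample that the paper gives, so not every count was a separate fragment. All 10 smooth muscle markers were in the table, and their summed level was 11277 to 21203 CPM in young and 3472 to 5599.9 CPM in old libraries. The fibroblast list had 11 of 12 genes in the table and summed to 749 to 1328 CPM in young and 1689 to 2714 CPM in old. Markers of other cells were mixed. Pecam1 of endothelium was at 0.244 to 0.765 CPM, Cd68 of macrophages was at 0.122 to 0.693 CPM, and Sox10 of Schwann cells, Cdh5 of endothelium and Myod1 of skeletal muscle had no row. Other genes of these lists were well above 0, with Pdgfrb at 502 to 1411 CPM and Cspg4 at 97.8 to 440.1 CPM of the pericyte list, S100b of the Schwann cell list at 10.5 to 81.2 CPM and Cd14 of the macrophage list at 4.72 to 13.9 CPM. In young and old libraries the summed levels were 906 to 1374 and 674 to 1521 CPM for 5 of 8 pericyte markers, 5.13 to 16.0 and 10.4 to 16.8 CPM for 3 of 8 macrophage markers, 13.5 to 75.5 and 54.9 to 86.4 CPM for 3 of 7 Schwann cell markers, and 86.4 to 266 and 28.1 to 48.6 CPM for 3 of 9 skeletal muscle markers. Of the skeletal muscle sums Acta1, an actin gene, gave 72.1 to 255.5 CPM in young and 5.97 to 17.6 CPM in old. Tnnt3 of that list went the other way, at 7.78 to 12.8 CPM in young and 10.6 to 28.4 CPM in old, and Des was at 0.299 to 2.99 CPM. Old replicate 1 stood apart in its effect on the test across all genes, since edgeR called 1 gene with all libraries and 732 genes without it.

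The 250 bases before the transcript start of Agtr1a and Avpr1a are shown because these were the receptors whose young and old libraries did not overlap. They were taken by symbol from a table of RefSeq promoter windows of the rat assembly GRCr8, in which 6 of the 7 receptors were matched (all but Htr2a), and capitals mark matches to the motifs named after them.
Agtr1a (chr17:34435433-34435682, minus strand): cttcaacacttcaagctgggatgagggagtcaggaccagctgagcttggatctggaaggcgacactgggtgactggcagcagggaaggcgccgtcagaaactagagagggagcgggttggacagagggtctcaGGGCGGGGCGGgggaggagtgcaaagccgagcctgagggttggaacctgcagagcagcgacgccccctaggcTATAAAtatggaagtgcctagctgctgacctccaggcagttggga
Avpr1a (chr7:59999493-59999742, plus strand): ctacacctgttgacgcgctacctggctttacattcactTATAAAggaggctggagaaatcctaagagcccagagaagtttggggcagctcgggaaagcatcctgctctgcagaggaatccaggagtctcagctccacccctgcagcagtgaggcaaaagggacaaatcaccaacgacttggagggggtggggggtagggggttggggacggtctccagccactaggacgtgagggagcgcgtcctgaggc
Both strands were searched for the TATA box letters TATAAA, for the GC box letters GGGCGG and for the CArG box, the sequence bound by serum response factor. TATAAA was found 45 bases before the start of Agtr1a and 212 bases before that of Avpr1a, counted to the first base of the match, and 12.9% of 33469 promoter windows of the same length held it. Agtr1a had 2 overlapping matches to GGGCGG, at 117 and 112 bases before the start, a sequence held by 30.5% of all windows. The CArG box was in none of the 6 windows searched and in 1.497% of all windows. These matches describe the letters only.

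A gene was called where its adjusted p was under 0.05 and its log2 fold change of old over young reached 1 in size. By the quasi-likelihood test of edgeR 0 of the 7 receptors were called, beside 0.00691% of all genes. DESeq2 called 2 of the 7, Agtr1a and Avpr1a, beside 5.68% of the genes it tested. Both were higher in old VSM cells, a direction in which DESeq2 called 2.3% of genes, with 3.38% called lower. On counts simulated with edgeR's estimates of the spread of each gene and 200 changed genes, 19.7% of the calls of DESeq2 were false. That lay above the 5% that its threshold allows and above the 3.9% of edgeR and 3.4% of limma-voom. In the simulation edgeR recovered 85.5% of the changed genes, whereas on the real counts it called 1 gene. The settings thus differ, and the false share among the real calls of DESeq2 is not known. A call by DESeq2 alone still lacks the agreement of the other tools. limma-voom called 0 receptors and 0 genes. With edgeR's unadjusted p under 0.05, Agtr1a and Avpr1a were higher in old and 0 receptors were lower, beside 11.2% and 11.5% of all genes. For the same pair the old libraries all lay above the young ones, so 2 of 7 receptors had separate groups, beside 29.2% of all genes (14.5% higher and 14.7% lower in old). The other 5 had overlapping groups and adjusted p from 0.496 to 0.912 in edgeR. Over the 7 receptors the median log2 fold change was 0.32, compared with 0.02 over all genes, with 5 positive and 2 negative values. With 3 libraries at each age, the smallest two-sided p of an exact permutation test is 0.1.

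**Figure D1:**
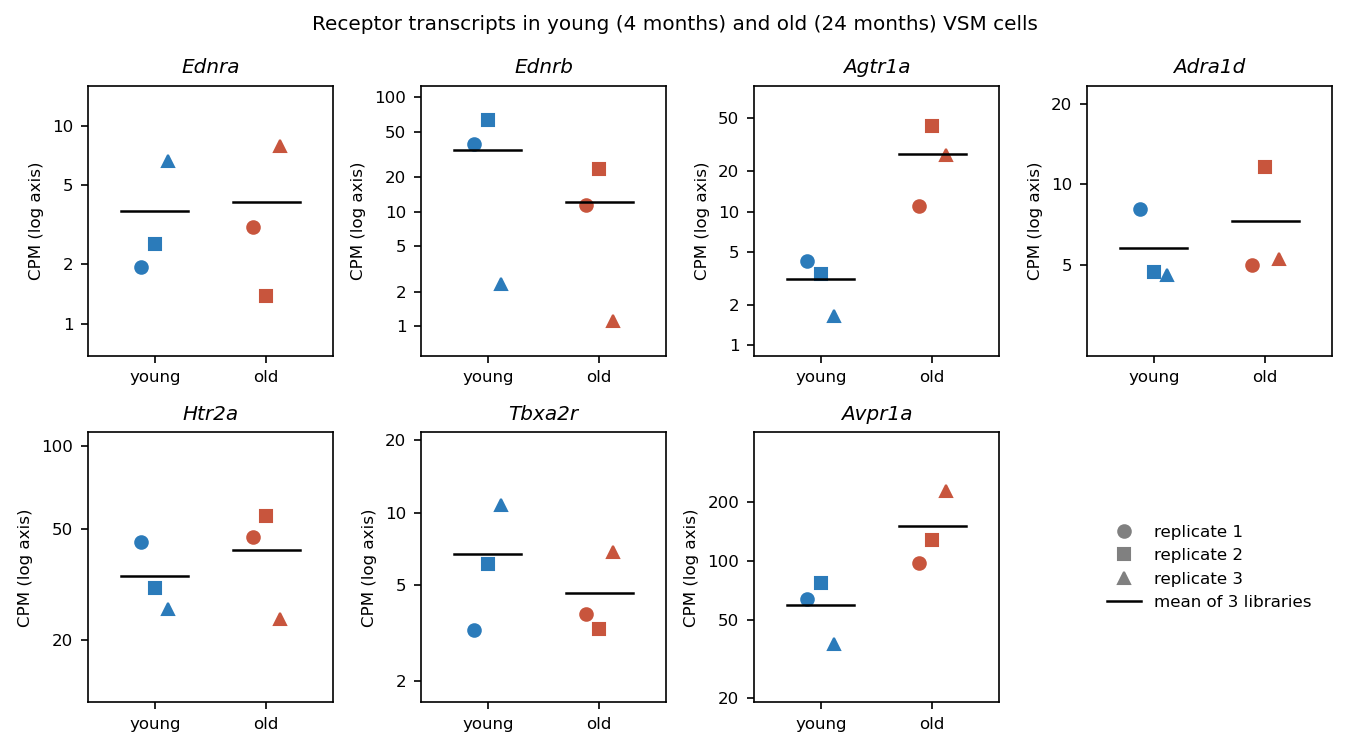
CPM of the 7 receptors on log axes in each young (blue) and old (red) library, with marker shapes for the replicate number and bars for the mean of 3 libraries. The groups are separate for Agtr1a and Avpr1a and overlap for the other 5, and Ednrb spans 2.34 to 63.0 CPM among the young libraries.

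Agtr1a (ENSRNOG00000018346), the type 1a angiotensin II receptor and the main pressor receptor for angiotensin in rodents, was higher in old VSM cells. It had 4.30, 3.44 and 1.67 CPM in young replicates 1, 2 and 3 and 11.02, 43.3 and 26.5 CPM in old replicates 1, 2 and 3. Every old library lay above every young library, and the lowest old library, replicate 1, was the one nearest to the young group. Young libraries averaged 3.14 ± 1.34 CPM and old libraries 26.9 ± 16.1 CPM (mean ± SD, n = 3 each), a ratio of 8.59. The log2 fold change was 3.10 ± 0.58 (SE; 95% interval 1.70 to 4.51), larger in size than that of 99.2% of all genes. In edgeR its adjusted p was 0.0697. It therefore missed the threshold of edgeR, whereas DESeq2 gave an adjusted p of 6.53e-07 and limma-voom one of 0.116. Without old replicate 1 edgeR called Agtr1a as well, with a log2 fold change of 3.48 (adjusted p = 0.0278), in a fit that called 1.58% of genes higher in old. With any other library left out the adjusted p in edgeR was between 0.124 and 0.249. DESeq2 called the gene with each library left out in turn, and without old replicate 1 it called 3.7% of all genes higher in old. Agtr1b, the near-identical second type 1 gene of rodents, had no row, and reads of a shared sequence may have been counted for either gene.

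Most fibroblast markers were also higher in the old libraries, in which the smooth muscle markers were lower. Of the 11 fibroblast genes in the table, 10 had a positive log2 fold change, and 6 were higher at an unadjusted p under 0.05 while 0 were lower, beside 11.2% and 11.5% of all genes. Of the 10 smooth muscle genes, 10 had a negative log2 fold change, and 9 were lower at that p, beside the same 11.5%. Young and old groups were separate for 5 of the 11 fibroblast genes, all higher in old, beside 14.5% of all genes. They were separate for 9 of the 10 smooth muscle genes, all lower in old, beside 14.7%. Pdgfra, a defining receptor of fibroblasts, had 307, 242 and 153 CPM in young and 376, 635 and 381 CPM in old libraries. Mfap5 of the same list had a log2 fold change of -0.16. It had 595, 738 and 486 CPM in young and 494, 549 and 588 CPM in old, with overlapping groups. In RNA from whole cultures, fewer cells of a type and less RNA per cell cannot be told apart. The part of these cell populations in the values of Agtr1a and Avpr1a was not tested.

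Angiotensinogen and the converting enzyme had low counts. Agt, the precursor angiotensinogen, was at 0.427 to 0.615 CPM in young and 0.765 to 1.19 CPM in old libraries, 0.82 higher in old on the log2 scale (edgeR adjusted p = 0.200). Ace, the converting enzyme, had 10 to 12 counts in the young and 12 to 37 counts in the old libraries. Agtrap, a protein that binds the type 1 receptor and promotes its internalization, was at 25.6 to 33.9 CPM in young and 28.1 to 32.6 CPM in old, and the groups overlapped.

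Avpr1a (ENSRNOG00000004400), the V1a receptor through which vasopressin constricts arteries, was the other receptor with separate groups. It had 63.9, 77.3 and 37.9 CPM in young replicates 1, 2 and 3 and 97.7, 128 and 228 CPM in old replicates 1, 2 and 3. Old replicate 3 was the highest and young replicate 3 the lowest of the 6 libraries. Young libraries averaged 59.7 ± 20.1 CPM and old libraries 151 ± 68.1 CPM (mean ± SD, n = 3 each), a ratio of 2.53. The log2 fold change was 1.34 ± 0.39 (SE; 95% interval 0.41 to 2.27). Its adjusted p was 0.134 in edgeR, 0.0100 in DESeq2 and 0.132 in limma-voom. DESeq2 did not call it without young replicate 3 (log2 fold change 1.09, adjusted p = 0.0705) or without old replicate 3 (0.91, adjusted p = 0.0805). In edgeR it stayed uncalled with each library left out, at log2 fold changes of 0.92 to 1.57. Avp, the gene of vasopressin itself, was at 0 to 0.693 CPM in the 6 libraries.

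**Figure D2:**
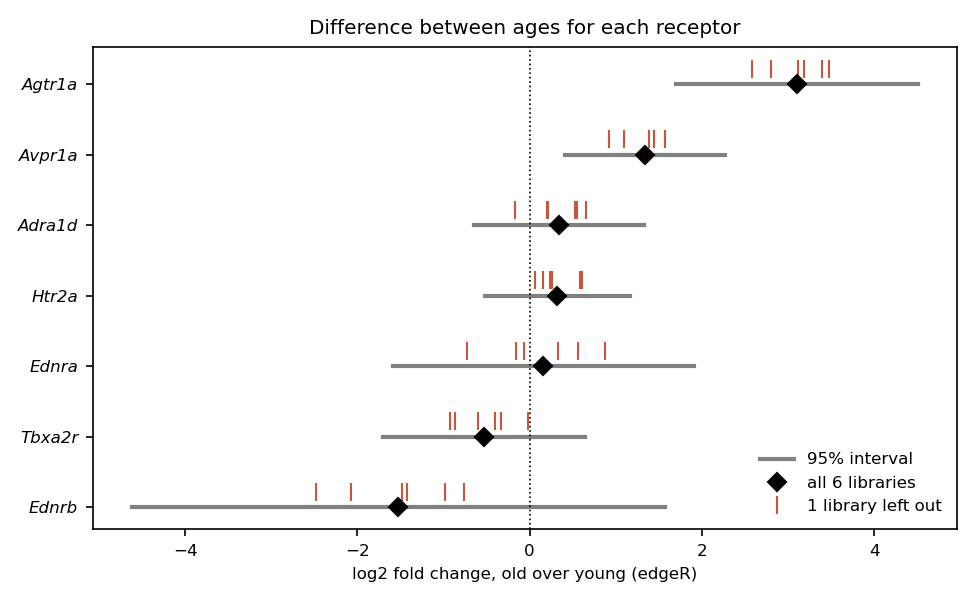
Log2 fold change of old over young VSM cells for each receptor, with the value from all 6 libraries (diamond), its 95% interval from edgeR (grey line) and the values with 1 library left out (red ticks). The intervals of Agtr1a (1.70 to 4.51) and Avpr1a (0.41 to 2.27) lie above 0 before adjustment over genes, and those of the other 5 receptors span 0.

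The endothelin receptors varied more between libraries of one age than between the ages. Ednrb (ENSRNOG00000010997) had 39.3, 63.0 and 2.34 CPM in young replicates 1, 2 and 3 and 11.4, 23.9 and 1.10 CPM in old replicates 1, 2 and 3. Replicate 3 of each age was far below its group, by a factor of 26.9 from the highest to the lowest young library and 21.7 from the highest to the lowest old library. Young libraries averaged 34.9 ± 30.6 CPM and old libraries 12.1 ± 11.4 CPM (mean ± SD, n = 3 each), and the groups overlapped. The log2 fold change was -1.52 ± 1.28 (SE; 95% interval -4.62 to 1.57), and edgeR gave an adjusted p of 0.496. The 6 endothelial markers with a row summed to 11.4 to 18.7 CPM in young and 13.6 to 20.2 CPM in old libraries. Of these sums Tek, the angiopoietin receptor, gave 2.64 to 12.5 CPM in young and 11.3 to 16.8 CPM in old. The 6 markers went both ways, with 3 positive and 3 negative log2 fold changes. Erg of the same list was at 2.46 to 6.85 CPM in young and 0.362 to 1.85 CPM in old, with separate groups. Its log2 fold change was -2.03, at adjusted p-values of 0.159 in edgeR and 0.0194 in DESeq2. The part of endothelial cells in the values of Ednrb was not tested.

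Ednra (ENSRNOG00000012721), the endothelin A receptor that mediates constriction, had 1.95, 2.54 and 6.64 CPM in young and 3.10, 1.39 and 7.91 CPM in old replicates 1, 2 and 3. Replicate 3 was the highest library of each age, and the old group held both the lowest and the highest value. Its log2 fold change was 0.16 ± 0.73 (SE; 95% interval -1.59 to 1.90), and edgeR gave an adjusted p of 0.912. Its direction depended on single libraries, with -0.73 without old replicate 3 and 0.88 without young replicate 3.

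Edn1, which encodes endothelin-1, the ligand of both receptors, had 34.4, 62.6 and 122 CPM in young and 18.1, 10.5 and 15.7 CPM in old libraries. Every old library lay below every young library. The log2 fold change of Edn1 was -2.31 ± 0.48 (SE), and it was called by DESeq2 (adjusted p = 2.87e-05) but not by edgeR (adjusted p = 0.0802). Ece1, the enzyme that matures endothelin, was at 183 to 254 CPM in young and 158 to 218 CPM in old, with overlapping groups. Edn2 and Edn3 had no row.

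Adra1d (ENSRNOG00000021256), the α1D-adrenergic receptor for norepinephrine, had 8.04, 4.69 and 4.56 CPM in young and 4.99, 11.6 and 5.24 CPM in old replicates 1, 2 and 3. The highest value was in old replicate 2, and the other old libraries lay within the range of the young ones. This gave a log2 fold change of 0.34 ± 0.41 (SE; 95% interval -0.65 to 1.33), and edgeR gave an adjusted p of 0.635. Without old replicate 2 the difference was -0.17. The other α1 receptor with a row, Adra1a, had 10 to 32 counts in a library. Among the remaining adrenergic receptors, Adra2a, which inhibits adenylyl cyclase, had 3.99, 5.97 and 7.53 CPM in young and 5.27, 0.846 and 0.896 CPM in old, and Adrb1, the β1 receptor, had 0.122 to 2.73 CPM in young and 0.423 to 0.603 CPM in old. Both had overlapping groups, and Adra2b, Adra2c and Adrb3 had no row.

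Htr2a (ENSRNOG00000010063), the serotonin 2A receptor that constricts arteries through Gq, had 45.0, 30.7 and 25.8 CPM in young and 47.2, 56.0 and 23.7 CPM in old replicates 1, 2 and 3. Old replicate 3 was the lowest of all libraries and old replicate 2 the highest. The log2 fold change was 0.32 ± 0.35 (SE; 95% interval -0.52 to 1.16), and edgeR gave an adjusted p of 0.599. Htr2b, another Gq-coupled serotonin receptor, had 0.797, 1.197 and 0.814 CPM in young and 3.46, 13.6 and 21.997 CPM in old. All old libraries of Htr2b lay above the young ones, and its log2 fold change was 3.79 ± 0.68 (SE), at adjusted p-values of 0.0648 in edgeR and 7.13e-08 in DESeq2. Slc6a4, the serotonin transporter, was at 0.936 to 2.17 CPM in young and 1.17 to 1.90 CPM in old.

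Tbxa2r (ENSRNOG00000020585), the receptor of thromboxane A2, had 3.26, 6.13 and 10.7 CPM in young and 3.80, 3.29 and 6.87 CPM in old replicates 1, 2 and 3. The groups overlapped, and replicate 3 was the highest library of each age. Between the ages the log2 fold change was -0.53 ± 0.49 (SE; 95% interval -1.70 to 0.64), and edgeR gave an adjusted p of 0.532. Without young replicate 3 it was -0.02. Among the enzymes upstream of thromboxane, Ptgs2, the inducible cyclooxygenase, had 51.6, 58.8 and 59.6 CPM in young and 19.5, 14.8 and 7.85 CPM in old. The old libraries of Ptgs2 all lay below the young ones, with a log2 fold change of -2.01 ± 0.32 (SE), at adjusted p-values of 0.0574 in edgeR and 1.89e-07 in DESeq2. Ptgs1, the constitutive enzyme, had overlapping groups at 61.8 to 251 CPM in young and 56.5 to 169 CPM in old, and Tbxas1, the thromboxane synthase, had no row.

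The receptors differed widely between libraries of the same age. The pooled SD within an age was 0.55 to 2.43 on the log2 scale over the 7 genes, lowest for Htr2a and highest for Ednrb. Compared with genes whose mean log2 CPM was within 1 of their own, the receptors had a larger SD than 83.6% (Adra1d) to 99.9% (Ednrb) of them. For Agtr1a and Avpr1a these shares were 94.6% and 95.9%.

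The wider list of other vasoactive receptors had 24 of 53 genes in the table, and these did not move one way. In edgeR 0 passed the adjusted threshold, and at an unadjusted p under 0.05 1 was higher and 5 were lower, which is 25.0% of the list beside 22.6% of all genes. DESeq2 called 1 higher and 3 lower, beside 2.3% and 3.38% of all genes. The median log2 fold change was 0.04. Without old replicate 1 the count at an unadjusted p under 0.05 was 10 of 24, in a fit where the share of all genes at that p was 32.4%. That fit called Htr2b, F2r and Adra2a, beside 5.06% of all genes. The gene higher in old was Htr2b. F2r, the thrombin receptor PAR1, had the highest CPM of the lower genes, with 469, 668 and 586 CPM in young and 265, 224 and 277 CPM in old. Its log2 fold change was -1.17 ± 0.17 (SE), at adjusted p-values of 0.0545 in edgeR and 4.01e-08 in DESeq2. F2rl1, the related protease-activated receptor 2, had 2.61, 3.27 and 1.63 CPM in young and 1.49, 0.346 and 0.784 CPM in old, and DESeq2 did not call it. P2ry6, a receptor for uridine diphosphate, had 14, 96 and 252 counts in young and 4, 10 and 4 counts in old libraries. Ptger3, a prostaglandin E2 receptor, had 12, 48 and 161 counts in young and 2, 0 and 6 counts in old. DESeq2 called both P2ry6 and Ptger3, and in each the young libraries differed among themselves by more than 10-fold.

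Of the 24 ligand and peptide processing genes, 16 were in the table. At an unadjusted p under 0.05 in edgeR 3 were higher and 2 were lower (31.2% of the list, beside 22.6% of all genes), 0 passed the adjusted threshold, and DESeq2 called 2, Edn1 and Ptgs2, both lower in old. The median log2 fold change was 0.16. The count of 5 at an unadjusted p was 3 without young replicate 1, 2 or 3 or old replicate 1, where 16.7%, 14.7%, 16.3% and 32.4% of all genes reached that p. Without old replicate 1 edgeR called Ptgs2, beside the 5.06% of all genes.

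Downstream of the receptors, 32 of 33 genes of Gq and RhoA coupling were in the table, in 33 rows since Gnas had 2. At an unadjusted p under 0.05 in edgeR 4 rows were higher and 9 lower, 39.4% of the list beside 22.6% of all genes, and 0 passed the adjusted threshold. DESeq2 called 3 higher and 5 lower, beside 2.3% and 3.38% of all genes. The median log2 fold change was -0.12, and without young replicate 3 the count at an unadjusted p under 0.05 was 8, with 16.3% of all genes. Without old replicate 1 edgeR called Itpr3, Ppp1r14a and Rock2, a RhoA-activated kinase, beside the 5.06% of all genes. With all libraries Rock2 had 794, 780 and 915 CPM in young and 492, 355 and 356 CPM in old, with separate groups. Its log2 fold change was -1.05 ± 0.17 (SE), at adjusted p-values of 0.0600 in edgeR and 1.93e-06 in DESeq2, which called it. The G protein α subunits that most constrictor receptors use were not called, with log2 fold changes of -0.06 ± 0.18 (SE) for Gnaq and -0.11 ± 0.10 (SE) for Gna11. Gna14, a less widespread member of the Gq family, had 2.79, 0.465 and 0.326 CPM in young and 4.38, 5.502 and 7.33 CPM in old, with an adjusted p of 0.181 from edgeR and 0.0310 from DESeq2.

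Among the calcium release and phospholipase genes, Itpr3, an inositol trisphosphate receptor, had 51.9, 45.1 and 40.7 CPM in young and 102, 85.1 and 101 CPM in old, a log2 fold change of 1.06 ± 0.13 (SE), at adjusted p-values of 0.0531 in edgeR and 2.10e-09 in DESeq2. Itpr1, the isoform best known in smooth muscle, had 174, 247 and 454 CPM in young and 109.7, 78.8 and 168 CPM in old, a log2 fold change of -1.30 ± 0.42 (SE; edgeR adjusted p = 0.161). Old libraries thus lay above young ones for Itpr3 and below them for Itpr1, and Itpr2 was 0.46 higher on the log2 scale with an adjusted p of 0.175 from edgeR. Plcb1, a Gq-activated phospholipase C, had 4.85, 1.93 and 4.25 CPM in young and 11.1, 11.8 and 13.0 CPM in old, a log2 fold change of 1.70 (edgeR adjusted p = 0.0762). Plcb4, another isoform, had 72.5, 99.0 and 189 CPM in young and 43.8, 53.6 and 59.3 CPM in old, a log2 fold change of -1.20 (edgeR adjusted p = 0.137). Plcb3 had 88.4, 104.9 and 108 CPM in young and 62.5, 75.9 and 62.4 CPM in old, a log2 fold change of -0.59 (edgeR adjusted p = 0.0894), and Plcb2 had overlapping groups and a log2 fold change of -0.18. DESeq2 called Itpr1, Itpr3, Plcb1 and Plcb4, and not Itpr2 (DESeq2 adjusted p = 0.101) or Plcb2 (0.916). Plcb3 had separate groups and a DESeq2 adjusted p of 0.00276, and was not called because its log2 fold change was under 1 in size.

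At the myosin end of the pathway the named genes were lower in old. Ppp1r14a, the phosphatase inhibitor CPI-17 that protein kinase C activates, had 37.5, 45.7 and 62.6 CPM in young and 17.1, 12.7 and 13.3 CPM in old, a log2 fold change of -1.76 ± 0.22 (SE), at adjusted p-values of 0.0531 in edgeR and 1.02e-09 in DESeq2. Mylk, the myosin light chain kinase, had 65.9, 45.4 and 203 CPM in young and 35.0, 21.97 and 14.1 CPM in old, a log2 fold change of -2.15 (edgeR adjusted p = 0.137), and it also stands in the smooth muscle marker list. DESeq2 called both.

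Genes that switch receptors off or bind them had 16 of 18 members in the table, and at an unadjusted p under 0.05 in edgeR 2 were higher and 6 lower, or 8 of 16, beside 22.6% of all genes. None of the 16 passed the adjusted threshold of edgeR, DESeq2 called 3, all lower, beside 3.38% of all genes, and the median log2 fold change was -0.28. Grk5, a kinase that phosphorylates active receptors, had 76.2, 99.2 and 48.0 CPM in young and 34.5, 32.0 and 18.9 CPM in old, a log2 fold change of -1.39 ± 0.33 (SE), at adjusted p-values of 0.102 in edgeR and 0.00139 in DESeq2. Rgs16 and Rgs3, which speed the shut-off of Gq and Gi, were lower as well. Rgs16 had 70.0, 81.7 and 54.6 CPM in young and 31.4, 5.93 and 12.3 CPM in old, with an adjusted p of 0.129 from edgeR and 0.00318 from DESeq2, and the log2 fold change of Rgs3 was -0.61 (edgeR adjusted p = 0.0967). Flna, the actin cross-linker filamin A that binds several receptors, was at 5751 to 7452 CPM in young and 3123 to 4716 CPM in old. On the higher side, Arrb2, a β-arrestin, had 1.68, 1.86 and 2.08 CPM in young and 2.43, 3.56 and 2.89 CPM in old, and Snx1, a sorting nexin of endosomes, had a log2 fold change of 0.34. DESeq2 called Grk5, Rgs16 and Rgs4, and the groups of Rgs4 overlapped. Without old replicate 1 edgeR called Rgs16.

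**Figure D3:**
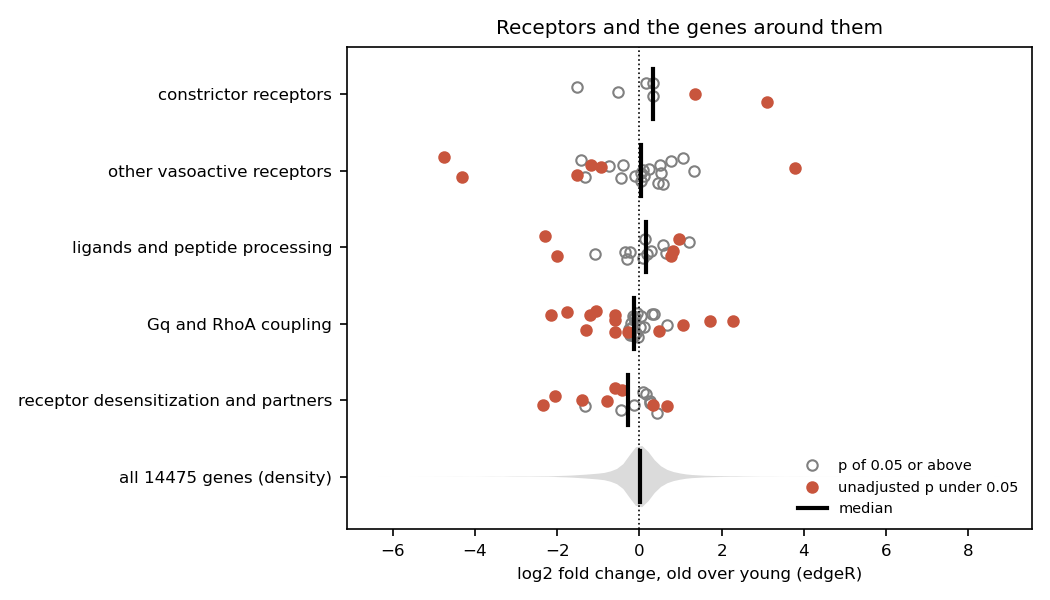
Log2 fold change of old over young VSM cells (edgeR) for each gene of the constrictor receptor set and of 4 lists around it, with filled points at an unadjusted p under 0.05 and black bars for medians, above the density over all 14475 genes. Medians lie between -0.28 for receptor desensitization and partners and 0.32 for the constrictor receptors, and each list holds points on both sides of 0.

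The genes most like each receptor over the 6 libraries were found by the root mean square difference between log2 CPM profiles, each centred on its own mean, among 12956 other genes with a symbol. For Agtr1a these were Ralgdsl1 and Ackr3, an atypical chemokine receptor, each with a difference of 0.32 on the log2 scale. Ackr3 had 36.2, 22.6 and 13.1 CPM in young and 78.5, 226 and 118 CPM in old libraries, and so repeated the order of the libraries of Agtr1a. For Avpr1a they were Ptpn7 (0.13), a tyrosine phosphatase, and Hsd17b1 (0.16), a steroid dehydrogenase, both at under 3 CPM in each library. For Ednrb they were Ch25h (0.31), the cholesterol 25-hydroxylase, and Slpi (0.50), and Ch25h had 7.22, 6.95 and 0.204 CPM in young and 1.53, 2.75 and 0.0746 CPM in old, again lowest in replicate 3 of each age.

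Nox4, an NADPH oxidase, was nearest to Ednra (0.24), with 6.27, 8.53 and 26.0 CPM in young and 7.32, 5.39 and 26.1 CPM in old. Among the 2 nearest genes to each remaining receptor were Abhd17c (0.18) for Adra1d, Vcan (0.11) and Pgam1 (0.13) for Htr2a, and Sipa1l2 (0.09) and Rnd3 (0.15) for Tbxa2r. LOC100359700 (0.28), the second gene for Ednra, was under 1 CPM in each library. With 6 libraries and this many genes, a close profile is a description of these libraries only.

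**Figure D4:**
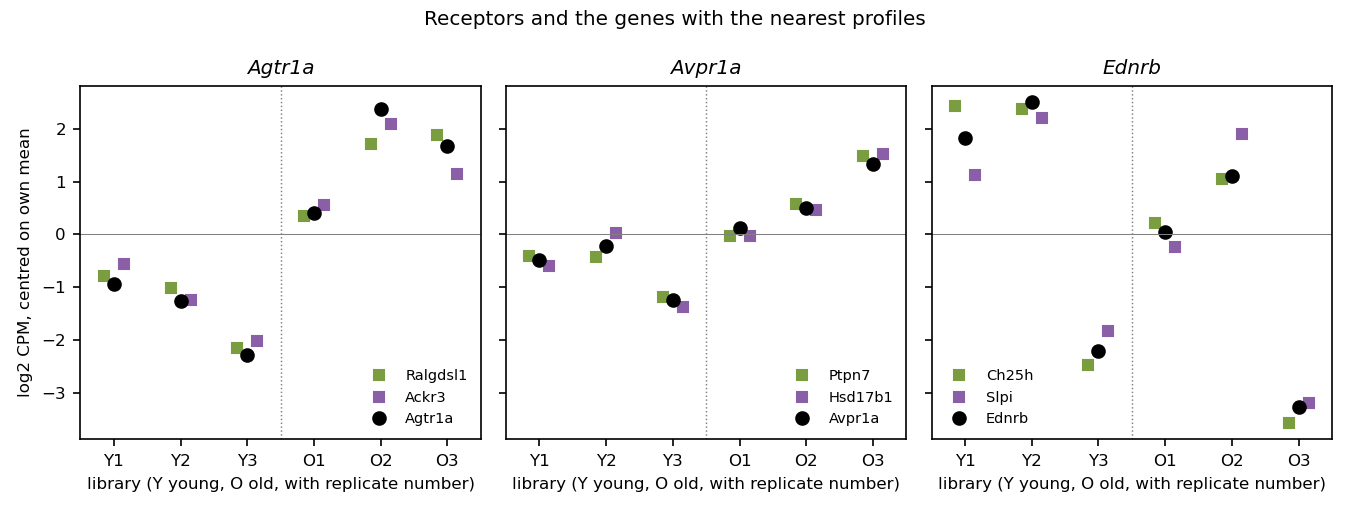
Log2 CPM centred on each gene's own mean in the 6 libraries for Agtr1a, Avpr1a and Ednrb (black) and their 2 nearest genes (green and purple). Agtr1a and Avpr1a are below their means in all young and above them in all old libraries, while Ednrb is lowest in replicate 3 of both ages.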

How the data were processed

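RNA of cultured VSM cells from the SFA of 3 young and 3 old rats was sequenced as stranded polyadenylated libraries in paired reads. The authors trimmed reads with Cutadapt 3.5 through Trim Galore 0.6.7, aligned them to Rnor 6.0 with STAR 2.7.10b and counted genes with featureCounts (Subread 2.0.8), and the deposited values are raw counts without normalization. They tested age with DESeq2 1.46.0 at the thresholds used here and reported 326 genes higher and 479 lower in old. The DESeq2 fit made here called the same numbers of genes. The methods name a RefSeq annotation, whereas the table uses Ensembl identifiers. How strand, mates and multi-mapping reads were handled was not given in the sources used here. All rows reached 10 counts in 3 or more libraries, so receptors below that level have no row.

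Young and old were compared over all 14475 genes with edgeR 4.0.16 in R 4.3.3 (TMM, quasi-likelihood F test, Benjamini-Hochberg adjustment, no covariates, young as reference). The SE is the size of the log2 fold change over the root of its F statistic. Log2 CPM used a prior count of 2. DESeq2 1.42.0 (Wald test, independent filtering at 0.05, 292 genes without an adjusted p) served as an alternative, as did limma-voom from limma 3.58.1, RLE factors, library totals, a filter of 1 CPM in 3 libraries, halved counts, the replicate block and each library left out in turn. The steps were tested on counts simulated with edgeR's estimates of the spread of each gene. There DESeq2 recovered more of the changed genes than edgeR or limma-voom but had a larger share of false calls, above its nominal level. The simulated setting differs from the real counts, so it does not rank the tools on these data. Replicates were separate libraries, with a chi-square per gene of at least 67.1 between any 2 of a group. The labels give no batch.

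Members and lists were chosen with earlier results of these data known, so no list count is independent support. Every member in the table was named, and from each of 4 pathway lists at most 4 genes per direction with the largest log2 fold changes among those with an unadjusted p under 0.05 and separate groups, together with the 2 nearest genes per member. Some genes that these rules or families include are not reported here. Other ligands, enzymes and receptors of the same families, and Rgs4, Rock2, Plcb2, Plcb3, Tek and the markers given outside their defining genes, were named after their values were seen. Fold changes and tests compared levels within a gene. No transcript lengths were used, so sums of CPM over a list and comparisons of CPM between genes do not allow for length.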

Additional observations from a re-analysis of the deposited data

How the results depend on the processing

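The direction of Agtr1a, Avpr1a, Ednrb, Htr2a and Tbxa2r was the same under each of 20 alternatives. Agtr1a was called by DESeq2 (3.10), by DESeq2 with the replicate block (3.03) and by edgeR without old replicate 1, and its values in edgeR with a library left out ranged from 2.58 to 3.48. DESeq2 gave 3.39, 3.17 and 2.79 without young replicates 1, 2 and 3 and 3.47, 2.58 and 3.11 without old replicates 1, 2 and 3. Avpr1a was called by DESeq2 (1.33) and by DESeq2 with the replicate block (1.28), and by DESeq2 without young replicate 1 (1.38) or 2 (1.56) and without old replicate 1 (1.57) or 2 (1.44). Its values with a library left out were 0.91 to 1.57. Ednrb was called by DESeq2 with the replicate block alone (-1.46, adjusted p = 8.31e-09 from DESeq2), and in edgeR with the replicate block its log2 fold change was -1.45 (adjusted p = 0.0824). Ednra ranged from -0.74 to 0.88 and Adra1d from -0.17 to 0.66 with a library left out, and their reversed values were -0.16, -0.06 and -0.73 (edgeR) and -0.17, -0.071 and -0.74 (DESeq2) for Ednra and -0.17 with either tool for Adra1d.

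The number of receptors called was 0 in edgeR, 2 in DESeq2 and 3 in DESeq2 with the replicate block, and 0 to 2 with a library left out. Over all genes edgeR called 1, and 65 with the filter of 1 CPM in 3 libraries, DESeq2 called 805 and, with the replicate block, 1004, limma-voom called 0, and edgeR with a library left out called 0 to 732. DESeq2 called 737, 551 and 600 without young replicates 1, 2 and 3 and 1377, 614 and 651 without old replicates 1, 2 and 3. At an unadjusted p under 0.05, leaving out a library gave 5 to 10 of the other vasoactive receptors, 3 to 6 of the ligand and processing genes and 8 to 18 of the coupling rows, of which edgeR alone gave 8 to 13. The causes were not tested. The alternatives of DESeq2 with a library left out or with the block were chosen after seeing the data. The replicate numbers are not said to mark a shared animal, day or batch, and deviations of same-numbered libraries from their group means correlated across 14475 genes at 0.032, 0.26 and 0.26, so the numbers were not treated as pairs. Not every library correlated best with its own number. The lowest count of a receptor in a library was 59.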

Other observations

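Several receptors and vessel wall genes differed more between cultures of one age than between ages, with replicate 3 of each age at the extreme. Notch3, a receptor of mural cells, had 3.48, 11.2 and 81.6 CPM in young and 1.49, 1.08 and 10.95 CPM in old replicates 1, 2 and 3. S1pr3, a sphingosine-1-phosphate receptor that constricts arteries, had 53.8, 86.6 and 150.01 CPM in young and 73.4, 51.9 and 86.3 CPM in old. Both were highest in replicate 3 of each age, as were Ednra and Tbxa2r. Bdkrb1, the inducible bradykinin receptor, had 16.6, 14.5 and 5.41 CPM in young and 7.62, 12.4 and 1.85 CPM in old, and was lowest in replicate 3 of each age, as was Ednrb. These genes were chosen after their values were seen, and the labels do not tie a replicate number in one age to the same number in the other.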
